A study of Mus musculus with 30 samples.

Results

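The epidermal differentiation complex is a run of neighbouring genes on mouse chromosome 3 that encode proteins of the cornified envelope, and 43 of the 18784 genes measured on these arrays belonged to it by symbol. They were the genes named on the array whose symbol began with Lce or Sprr, together with Lor, Ivl, Rptn, Flg2, Hrnr, Crnn, Tchh, Tchhl1, Kprp, Crct1, Pglyrp3 and Pglyrp4, each read by 1 probe set. Flg, Lelp1 and Sprr2a also met the choice of names but were not among the named probe sets, and they were not analysed here. The 43 fell into 12 Lce1, 6 Lce3, 2 Sprr1 and 9 Sprr2 genes, Sprr3, Sprr4, 6 S100-fused genes (Flg2, Hrnr, Rptn, Crnn, Tchh and Tchhl1) and 6 others (Lor, Ivl, Kprp, Crct1, Pglyrp3 and Pglyrp4).

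As keratinocytes leave the basal layer they assemble a shell of cross-linked protein beneath the plasma membrane. Transglutaminases join involucrin, loricrin, the small proline-rich (SPRR) proteins and the late cornified envelope (LCE) proteins into that shell, and S100-fused proteins such as filaggrin and repetin bind keratin filaments or become part of it. The composition differs between stratified epithelia, and SPRR2 and LCE3 genes are known for induction in inflamed or injured skin. The preputial gland is a modified sebaceous gland of the male mouse whose duct is lined by a stratified, keratinising epithelium.

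The arrays measured RNA from preputial glands of male mice on a B6 background of 3 genotypes, called WT where unaltered, KO where Cyp1a1 was deleted and DKO where both Cyp1a1 and Cyp1b1 were. Both knockouts remove cytochrome P450 enzymes that oxidise benzo[a]pyrene (BaP), a carcinogenic combustion product. Mice of all genotypes began a BaP diet of about 12.5 mg/kg/day at 6 weeks of age and were sampled at weeks 0, 4, 8, 12 and 16, in a study of squamous cell carcinoma of the duct. There were 2 mice, 1 array each, in each of the 15 groups. Week 0 was the only point free of BaP, and later arrays differ from it in age as well as exposure. The labels name the tissue as the duct, the protocols describe whole dissected glands, and in such bulk RNA fewer cells of a type and less RNA per cell cannot be told apart. No source used here gives the alleles' origin or whether mice were littermates.

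The targeted genes and the arrays themselves limit what follows. Cyp1b1, which is deleted in the double knockout, read 6.17 to 6.77 in WT (log2 intensity, median 6.51), 6.66 to 8.82 in KO (median 8.41) and 7.48 to 10.57 in the arrays labelled DKO (median 10.20). Its signal therefore goes against that label. The position of its probes against the deletion was not used here, so the signal checks nothing. DKO here always means the arrays that carry that label. Cyp1a1 read between 3.67 and 6.14 on all arrays and did not separate the genotypes. In 9 low-range arrays, 8 labelled DKO and KO week 12 replicate 2, the standard deviation of all log2 values was 1.15 to 1.42, against 1.70 to 2.08 in the other 21. Of the arrays labelled DKO, only week 0 replicate 1 and week 12 replicate 2 had the normal range. Low-range and normal-range arrays correlated at a median of 0.801 across genes, and normal-range arrays with each other at 0.975. The number in each array's label was 1 to 10 for WT, 11 to 19 and 30 for KO, and 20, 22 to 28, 31 and 33 for DKO, so genotype and this numbering largely coincide.

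The promoters of the genes that the results turn on are shown here for reference. Whether their sequence has any part in the differences was not tested. RefSeq (GRCm38.p6) promoter windows were matched for 36 of the 43 genes. Each line gives 210 bases ending at the base before the start site, 5′ to 3′ on the gene's strand, with capitals marking the AP-1 core TGANTCA and the TATA box core TATAAA.

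Sprr2d (chr3:92338930-92339139, forward strand): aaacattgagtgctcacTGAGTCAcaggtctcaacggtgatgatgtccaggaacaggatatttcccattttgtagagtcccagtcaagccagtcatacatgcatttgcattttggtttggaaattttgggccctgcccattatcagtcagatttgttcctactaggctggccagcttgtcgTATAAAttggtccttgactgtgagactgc

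Sprr2b (chr3:92316495-92316704, forward strand): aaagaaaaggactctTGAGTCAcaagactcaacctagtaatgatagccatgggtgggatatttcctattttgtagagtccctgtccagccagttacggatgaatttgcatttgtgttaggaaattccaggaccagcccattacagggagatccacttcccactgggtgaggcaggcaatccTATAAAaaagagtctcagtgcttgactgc

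Sprr2f (chr3:92364977-92365186, forward strand): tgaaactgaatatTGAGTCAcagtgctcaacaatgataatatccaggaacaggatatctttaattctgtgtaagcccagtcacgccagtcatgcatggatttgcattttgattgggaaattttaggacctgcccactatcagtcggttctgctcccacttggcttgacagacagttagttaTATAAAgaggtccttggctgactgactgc

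Sprr1b (chr3:92438780-92438989, reverse strand): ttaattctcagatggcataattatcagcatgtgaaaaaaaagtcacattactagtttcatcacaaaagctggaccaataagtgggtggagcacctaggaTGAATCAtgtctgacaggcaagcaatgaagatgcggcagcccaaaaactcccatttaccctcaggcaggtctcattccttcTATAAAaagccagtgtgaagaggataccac

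Sprr1a (chr3:92485882-92486091, reverse strand): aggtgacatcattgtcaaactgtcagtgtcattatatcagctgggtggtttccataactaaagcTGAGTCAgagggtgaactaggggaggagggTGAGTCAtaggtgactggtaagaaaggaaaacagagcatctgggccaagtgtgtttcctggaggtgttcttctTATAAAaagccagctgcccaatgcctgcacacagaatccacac

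Sprr4 (chr3:92500494-92500703, reverse strand): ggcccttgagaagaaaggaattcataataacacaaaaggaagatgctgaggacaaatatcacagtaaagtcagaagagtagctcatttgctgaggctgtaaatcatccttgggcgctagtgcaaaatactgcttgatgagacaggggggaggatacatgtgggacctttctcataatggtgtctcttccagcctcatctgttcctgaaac

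Rptn (chr3:93393489-93393698, forward strand): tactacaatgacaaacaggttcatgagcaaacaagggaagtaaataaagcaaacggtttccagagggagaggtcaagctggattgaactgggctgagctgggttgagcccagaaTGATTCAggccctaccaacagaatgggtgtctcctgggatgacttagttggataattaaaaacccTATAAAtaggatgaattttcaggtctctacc

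Lce3a (chr3:92926231-92926440, reverse strand): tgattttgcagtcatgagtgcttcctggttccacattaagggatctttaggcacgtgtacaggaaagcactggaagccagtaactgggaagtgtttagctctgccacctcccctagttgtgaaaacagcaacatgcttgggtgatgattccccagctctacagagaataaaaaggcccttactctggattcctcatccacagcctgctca

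AP-1 dimers of Jun and Fos proteins are known regulators of envelope genes. Within 250 bases before the start, on either strand, TGANTCA was present in 15 of the 36 promoters, against 6.75% of all 32851 mouse promoters in the RefSeq table. All 7 matched Sprr2 promoters held it with its first base 182 to 198 bases before the start, Sprr2k in 2 copies, and both Sprr1 promoters held it nearer the start, Sprr1a in 2 copies. In Sprr1a the copies overlapped a CACCC match and a TGACNNNGC match on one strand or the other. It was found in 4 of 6 S100-fused promoters and in Lor and Ivl, and in none of the 11 Lce1, 6 Lce3, Sprr3 or Sprr4 windows. TATAAA was present in 18 of the 36, against 12.4% of all promoters, including all 7 Sprr2 but not Sprr4. The aryl hydrocarbon receptor core GCGTG was in 3 of the 36 (28.2% of all promoters), the KLF core CACCC in 15 (52.0%) and the antioxidant response core TGACNNNGC in 6 (10.2%). Aligned in pairs, the 7 Sprr2 promoters shared 57.0% to 88.9% of bases (median 64.3% over 21 pairs), and Sprr4 shared 45.9% to 49.3% with them. These matches describe letters in a window and are not binding sites.

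Most members gave a low signal in WT. Over the 10 WT arrays, exposed and unexposed, 28 of the 43 genes had a median under 5, while the median of all probe sets was between 5.12 and 5.47 on every array. No detection calls were used, so rises from such values are given as log2 differences and not as folds, and levels of different genes are not compared.

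**Figure D1:**
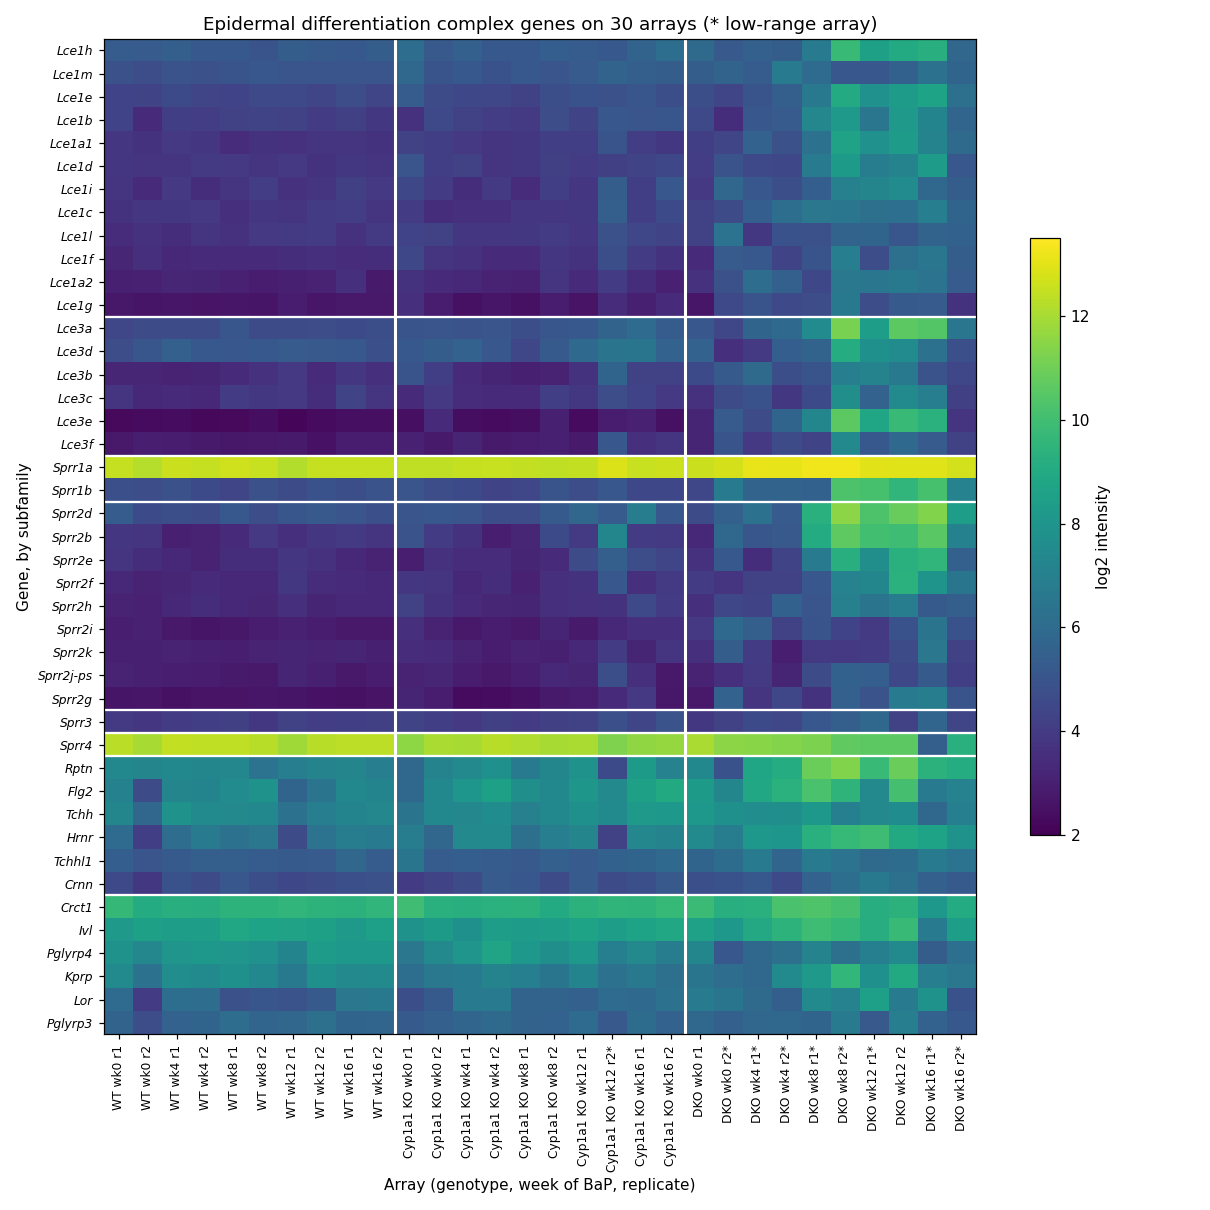
Log2 intensity (colour) of the 43 genes, in rows by subfamily, on the 30 arrays, in columns by genotype, week and replicate; asterisks mark the 9 low-range arrays. The arrays labelled DKO of weeks 8 to 16 carry the highest value of every Sprr2, Sprr1, Lce1 and Lce3 row except Lce1l and Lce1m, and Sprr4 darkens in the same arrays.

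In the arrays labelled DKO, 11 of the 43 genes rose above their week 0 level and none fell, when 0.57% of all genes were called higher (limma, mean of weeks 4 to 16 against week 0, adjusted p under 0.05 over all 18784 genes). They were Sprr2b, Sprr2d, Sprr2f, Sprr2h, Lce1a1, Lce1a2, Lce1b, Lce1c, Lce1e, Lce3a and Rptn. The median difference was 1.22 over the 43 genes, 37 of them positive, and 0.04 over all genes. Among genes with a WT mean under 4, 17 of 20 members were positive, as were 81.2% of all such genes. The medians there were 1.44 and 0.35, with a 95th percentile of 1.06 over all such genes. Between 4 and 6, 13 of 13 members and 60.9% of all such genes were positive, with medians of 1.72 and 0.10. Between 6 and 9 the medians were 0.88 and -0.26, and above 9 they were -0.09 and -0.51. Before any test, 9 members had all 8 exposed arrays above both week 0 arrays (2.24% of all genes did) and 1, Sprr4, had them all below (2.18%). The 11 were not equally firm. Without DKO week 0 replicate 1, 7 genes were called, and Sprr2b (2.59), Lce1c (1.58), Sprr2h (1.29) and Lce1a2 (1.08) were lost. With 1 array left out, the count rose to 19 in the absence of week 0 replicate 2, to 18 in that of week 8 replicate 1 and to 20 in that of week 16 replicate 2. The fit gives all arrays equal weight; estimated array weights were 1.44 to 6.39 in WT, 0.189 to 3.11 in KO and 0.178 to 0.350 in the arrays labelled DKO, and with them no member was called, while 2 genes of the whole array were. With only the groups compared in the fit, 2 remained (Sprr2d and Rptn). Within label numbers 22 to 33 only Rptn did, but that fit holds 1 DKO week 0 array, low-range replicate 2. Rptn read 4.91 on it, against 7.38 on the week 0 array left out, so its call there rests on 1 array.

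Single weeks differed. No member was called at week 4 (0.522% of all genes called), 13 were higher at week 8 (0.612% of all genes higher) and 15 at week 12 (0.5%). At week 16, 11 were higher (2.04%) and 2 lower (2%). At weeks 8, 12 and 16 alike, 8 genes were called: Sprr2b, Sprr2d, Sprr2e, Lce1a1, Lce1b, Lce1e, Lce3a and Rptn. Of these 8, Sprr2d alone kept its call at all 3 weeks whichever array was left out. The single-week counts moved with single arrays. Week 4 gave 2 with either week 0 array left out. Week 8 gave 8 if week 0 replicate 1 was left out, 23 if its own replicate 1 was, and 4 if its replicate 2 was. Week 12 gave 9 or 8 with its own replicate 1 or 2 left out. Week 16 gave 6 or 23 with week 0 replicate 1 or 2 left out, and 2 or 24 with its own replicate 1 or 2 left out. The 2 that stayed were Sprr2d and Sprr4. Read per array, the number of the 43 genes above all 20 WT and KO arrays was 15 and 18 at week 4, 32 and 37 at week 8, 32 and 34 at week 12, and 33 and 22 at week 16. Over all genes that share was 24.5% and 22.4%, 19.8% and 24.5%, 23.1% and 12.3%, and 28.4% and 23.1% in the same order.

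SPRR2 proteins are short cross-bridging proteins of the envelope, and 2 of their genes, Sprr2d and Sprr2b, gave the largest differences over weeks 4 to 16. Rptn (3.76), Lce3a (3.49) and Lce3e (3.24) came before any other Sprr2 gene. The median of the 9 Sprr2 genes was 1.71. Sprr2d read 4.64 and 5.52 in the arrays labelled DKO at week 0, 6.30 and 5.32 at week 4, 9.31 and 11.52 at week 8, 10.29 and 10.84 at week 12, and 11.32 and 8.42 at week 16. In WT it read 4.58 to 5.34 (median 4.90) and in KO 4.74 to 6.87 (median 5.10), so all 6 arrays labelled DKO of weeks 8 to 16 lay above every WT and KO array. The share of all genes that separate in this way was not counted, here or for the genes below. On single arrays 12.3% to 28.4% of all genes lay above every WT and KO array. The Sprr2d difference over weeks 4 to 16 was 4.09 ± 0.56 (SE; limma, adjusted p = 0.000646), and at week 16 it was 4.79 ± 0.71 (adjusted p = 0.00139).

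Sprr2b read 3.33 and 5.85 at week 0, 5.07 and 5.19 at week 4, 9.09 and 10.64 at week 8, 10.01 and 9.91 at week 12, and 10.57 and 7.05 at week 16 in the arrays labelled DKO. The WT arrays lay between 2.99 and 3.96. The KO arrays lay between 2.97 and 4.95 apart from the low-range array, week 12 replicate 2, at 7.30, which was above DKO week 16 replicate 2. The difference over weeks 4 to 16 was 3.85 ± 0.74 (limma, adjusted p = 0.0126), and 2.59 (adjusted p = 0.133) without week 0 replicate 1.

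Sprr2f read 4.05 and 3.72 at week 0 and 4.24 and 4.28 at week 4, and then 5.14 and 7.10, 7.28 and 9.35, and 7.97 and 6.45 at weeks 8, 12 and 16. It was the one Sprr2 gene whose exposed arrays labelled DKO all lay above both week 0 arrays, with a difference of 2.59 ± 0.47 (limma, adjusted p = 0.0112). It was also the only member called higher at weeks 12 and 16 against weeks 4 and 8, by 2.57 ± 0.42 (adjusted p = 0.00559), when 0.389% of all genes were higher. At week 16 the difference from week 0 was 3.32 ± 0.60 (adjusted p = 0.00557), and 2.56 (adjusted p = 0.0738) without week 16 replicate 1.

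The rest of the Sprr2 cluster gave fewer calls. Sprr2h differed by 1.71 ± 0.37 over weeks 4 to 16 (limma, adjusted p = 0.0255), and by 1.29 (adjusted p = 0.156) without DKO week 0 replicate 1. Sprr2e had a difference of 2.58 that missed the threshold (adjusted p = 0.0626) and passed it when week 0 replicate 2 (3.35), week 8 replicate 1 (2.90) or either week 16 array (2.07 and 3.08) was left out. Sprr2i and Sprr2k, whose promoters carry the same AP-1 and TATA letters as Sprr2d, had differences of -0.01 and -0.18, with 95% intervals of -0.87 to 0.84 and -1.09 to 0.73. These values turn on the week 0 arrays, which read 3.92 and 5.91 for Sprr2i and 3.55 and 5.39 for Sprr2k. With the low-range week 0 replicate 2 left out they were 0.98 and 0.74, with replicate 1 left out -1.01 and -1.10, and neither gene was called in either fit. Sprr2g, at 2.78 and 5.60 at week 0, differed by 0.93 and was not called. It was called at 2.34 (adjusted p = 0.0283) with week 0 replicate 2 left out and gave -0.48 with replicate 1 left out. The pseudogene Sprr2j-ps (1.22) was not called. Sprr2 genes are near-identical copies, and whether their probe sets separate them was not tested.

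SPRR1 proteins are the other cross-bridging pair. Sprr1a read 12.59 and 12.78 at week 0 in the arrays labelled DKO and between 12.71 and 13.25 afterwards, with WT at 12.17 to 12.67 and KO at 12.38 to 12.88. Its difference over weeks 4 to 16 was 0.34 ± 0.19 (limma, adjusted p = 0.392). The 13.25 of DKO week 8 replicate 2 was the highest value of any probe set on the 30 arrays, and whether the scale has a ceiling there was not tested. Sprr1b read 4.43 and 6.67 at week 0, 5.64 and 5.65 at week 4, 5.59 and 10.30 at week 8, 10.17 and 9.58 at week 12, and 10.15 and 7.12 at week 16. The WT and KO arrays stayed between 4.37 and 5.11. Its difference over weeks 4 to 16 was 2.47 ± 0.75 (adjusted p = 0.110). It passed the threshold when week 0 replicate 2 (3.60), week 8 replicate 1 (3.06) or week 16 replicate 2 (2.85) was left out. At week 12 alone Sprr1b was called, at 4.32, and was lost without week 0 replicate 1 (3.20) or either week 12 array (4.03 and 4.62). Sprr3, best known from oesophageal and oral epithelium, differed by 0.96 ± 0.33 (adjusted p = 0.152), with all 8 exposed arrays above both week 0 arrays.

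Sprr4 ran the other way. It read 12.05 and 11.48 at week 0 in the arrays labelled DKO, 11.44 and 11.35 at week 4, 11.23 and 10.68 at week 8, 10.60 and 10.58 at week 12, and 5.50 and 9.30 at week 16. In WT it lay between 11.85 and 12.43 (median 12.32) and in KO between 11.29 and 12.26 (median 12.00), so all 6 arrays labelled DKO of weeks 8 to 16 lay below every WT and KO array. The share of all genes that lay below in this way was not counted. Over weeks 4 to 16, all genes with a WT mean above 9 had a median difference of -0.51 in the arrays labelled DKO. Between the week 0 arrays labelled DKO, low-range replicate 2 minus normal-range replicate 1, their median was -1.17 and Sprr4 gave -0.57. At week 16 Sprr4 was lower than at week 0 by a log2 difference of -4.36 ± 0.65 (limma, adjusted p = 0.00139), a 20.5-fold fall on the array's scale. Most of that size came from replicate 1, and without it the difference was -2.46 (adjusted p = 0.00422). Against weeks 4 and 8, weeks 12 and 16 were lower by -2.18 ± 0.46 (adjusted p = 0.0303; 0.24% of all genes lower). Leaving out week 4 replicate 1 (-2.16), week 8 replicate 1 (-2.04) or either week 12 array (-2.18 in both) ended that call, and leaving out week 16 replicate 1 gave -1.23. Over weeks 4 to 16 the difference was -1.68 ± 0.51 (adjusted p = 0.110). It passed the threshold without week 16 replicate 1 (-1.20, adjusted p = 0.0163) or replicate 2 (-2.15, adjusted p = 3.83e-05). Sprr4 lies in the same gene run, between Sprr1a and Ivl, and Sprr2d and Sprr4 passed the threshold in opposite directions at week 16.

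**Figure D2:**
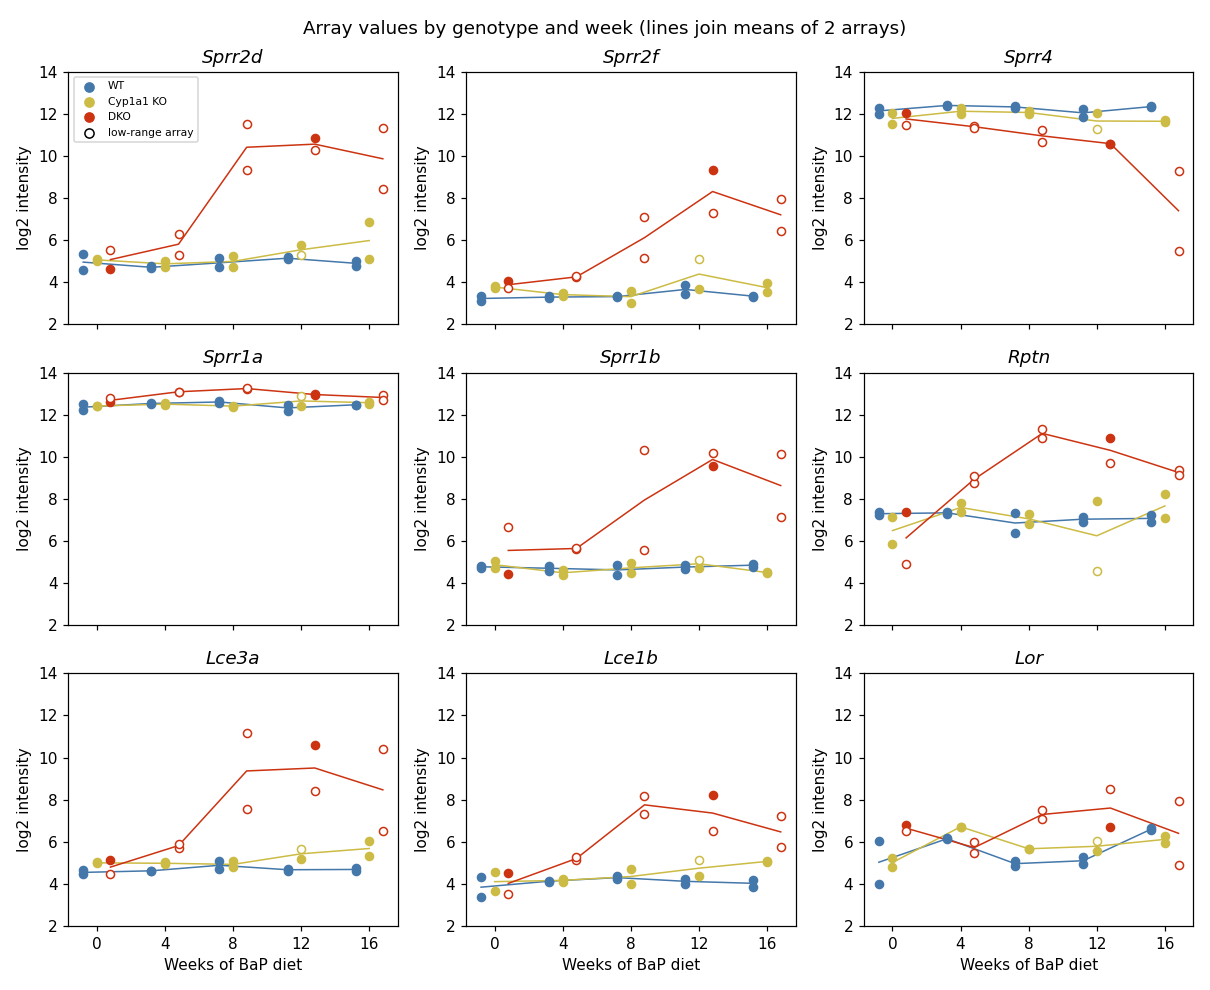
Log2 intensity of 9 genes (panels) on each array against weeks of BaP diet, coloured by genotype, with open circles for low-range arrays and lines through the means of 2 arrays; points are shifted sideways by genotype. Sprr2d in the arrays labelled DKO goes from 4.64 and 5.52 at week 0 to 11.32 and 8.42 at week 16 while Sprr4 goes from 12.05 and 11.48 to 5.50 and 9.30.

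LCE proteins are added late in envelope assembly, and the Lce1 group is the set typical of normal skin. Of the 12 Lce1 genes, 5 were higher over weeks 4 to 16 in the arrays labelled DKO, and the median difference of the 12 was 1.74. Lce1a1 read 4.15 and 4.40 at week 0, 5.62 and 4.87 at week 4, 6.31 and 8.63 at week 8, 7.83 and 8.32 at week 12, and 7.13 and 5.98 at week 16, against 3.46 to 3.90 in WT and 3.78 to 4.96 in KO. All 8 exposed arrays lay above both week 0 arrays, and the difference was 2.56 ± 0.39 (limma, adjusted p = 0.00202).

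Lce1b read 4.53 and 3.51 at week 0, 5.11 and 5.29 at week 4, 7.32 and 8.18 at week 8, 6.51 and 8.21 at week 12, and 7.20 and 5.73 at week 16, with WT at 3.37 to 4.36 and KO at 3.65 to 5.12. Its difference was 2.68 ± 0.41 (limma, adjusted p = 0.00236). Lce1e went from 4.75 and 4.42 at week 0 to a range of 5.01 to 9.02, a difference of 2.57 ± 0.46 (adjusted p = 0.0108). Lce1c (1.79 ± 0.33, adjusted p = 0.0112) and Lce1a2 (1.69 ± 0.40, adjusted p = 0.0443) were the other calls. Both were lost without DKO week 0 replicate 1 (1.58 and 1.08), and Lce1a2 also when replicate 1 of week 4 (1.62), 12 (1.70) or 16 (1.55) was left out.

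Lce1l and Lce1m, the Lce1 genes that lie beyond Kprp, away from the other 10, were not called. Lce1l read 4.22 and 6.37 at week 0 and 3.84 to 5.70 afterwards, a difference of -0.14 (95% interval -0.94 to 0.66). It was 0.94 with the low-range week 0 replicate 2 left out and -1.22 with replicate 1 left out, so its direction turns on 1 array. Lce1m differed by 0.20 (-0.43 to 0.83). Lce1d had a difference of 1.92 ± 0.49 (limma, adjusted p = 0.0579), which passed the threshold when week 0 replicate 2 (2.35), week 8 replicate 1 (2.11) or either week 16 array (1.52 and 2.32) was left out.

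Lce3 genes, known for induction when the skin barrier is broken, were all 6 positive in value, with a median of 1.62, and 1 passed. Of all genes, 81.2% of those with a WT mean under 4 and 60.9% of those between 4 and 6 were positive too. Lce3a read 5.12 and 4.47 at week 0, 5.72 and 5.91 at week 4, 7.56 and 11.17 at week 8, 8.39 and 10.62 at week 12, and 10.42 and 6.51 at week 16. WT lay at 4.45 to 5.08 and KO at 4.78 to 6.01, below the 6 arrays labelled DKO of weeks 8 to 16. The difference was 3.49 ± 0.73 (limma, adjusted p = 0.0201). Lce3e read 3.20 and 5.31 at week 0 and 4.68, 5.69, 7.27, 10.62, 8.76, 9.82, 9.36 and 3.75 in order of week and replicate afterwards, while every WT array lay between 2.22 and 2.49. Its difference of 3.24 ± 0.87 was not called (adjusted p = 0.0678). It was called when week 0 replicate 2 (4.29), week 8 replicate 1 (3.66) or either week 16 array (2.54 and 3.94) was left out. The week 16 arrays were far apart, at 9.36 and 3.75.

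**Figure D3:**
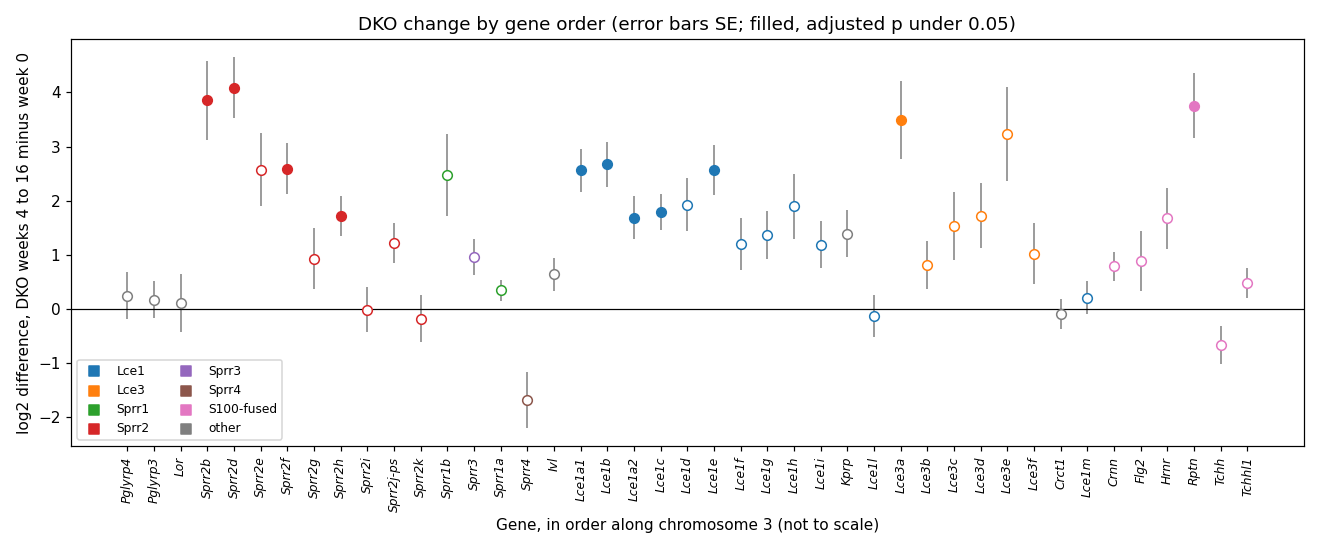
Log2 difference of weeks 4 to 16 from week 0 in the arrays labelled DKO (points, with SE bars) for the 43 genes in their order on chromosome 3, coloured by subfamily and filled where the adjusted p was under 0.05. Sprr2b to Sprr2h and Lce1a1 to Lce1e hold 9 of the 11 called genes, and Sprr4 (-1.68) sits between Sprr1a (0.34) and Ivl (0.64).

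Among the S100-fused genes, whose long repeat proteins join an amino-terminal calcium-binding domain to an envelope or filament-binding part, only repetin was called over weeks 4 to 16. Rptn read 7.38 and 4.91 at week 0, 8.76 and 9.10 at week 4, 10.91 and 11.31 at week 8, 9.73 and 10.88 at week 12, and 9.37 and 9.14 at week 16. WT lay at 6.39 to 7.37 and KO at 4.59 to 8.25, so all 8 exposed arrays labelled DKO exceeded every WT and KO array. The share of all genes that did so on all 8 was not counted, and on single arrays it was 12.3% to 28.4%. The Rptn difference was 3.76 ± 0.60 (limma, adjusted p = 0.00315). The low-range arrays DKO week 0 replicate 2 (4.91) and KO week 12 replicate 2 (4.59) gave the lowest Rptn values of the series, whereas in the normal-range pair labelled DKO it read 7.38 and 10.88. At week 16 the difference was 3.11 ± 0.76 (adjusted p = 0.0271), and it was lost without week 0 replicate 2 (1.88) or week 16 replicate 1 (2.99).

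Hornerin (Hrnr), a filaggrin-like protein, read 7.49 and 6.82 at week 0 and 7.85 to 9.92 afterwards in the arrays labelled DKO, with no overlap, but the difference of 1.67 ± 0.56 was not called (limma, adjusted p = 0.144). Flg2, which encodes another filaggrin-like protein, read 8.25 and 7.28 at week 0, 8.85 and 9.35 at week 4, 10.21 and 9.50 at week 8, 7.40 and 10.12 at week 12, and 6.68 and 7.08 at week 16. The week 16 arrays lay below both week 0 arrays, and the difference over weeks 4 to 16 was 0.88 ± 0.55 (adjusted p = 0.445). Cornulin (Crnn) read 4.83 and 4.89 at week 0 and 4.55 to 6.64 later. It was called at week 12 alone (1.59), and lost without week 0 replicate 2 (1.62) or week 12 replicate 1 (1.39).

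Trichohyalin (Tchh), a protein of the inner root sheath and of some stratified epithelia, was the second gene called lower at week 16. It read 8.15 and 7.75 at week 0, 6.98 to 8.12 at weeks 4 to 12, and 5.83 and 6.94 at week 16, a difference of -1.57 ± 0.45 (limma, adjusted p = 0.0497). The call was lost without week 0 replicate 1 (-1.37, adjusted p = 0.195) or week 16 replicate 1 (-1.01, adjusted p = 0.353). WT values of 5.80 to 7.89 overlapped the week 16 arrays labelled DKO. Tchhl1 differed by 0.48 over weeks 4 to 16 and was not called.

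The genes of the classical envelope proteins were not called over weeks 4 to 16. Loricrin (Lor), the main envelope protein of skin, read 6.80 and 6.49 at week 0, 5.98 and 5.47 at week 4, 7.49 and 7.10 at week 8, 8.51 and 6.69 at week 12, and 7.92 and 4.88 at week 16 in the arrays labelled DKO, a difference of 0.11 (95% interval -1.0 to 1.2). Involucrin (Ivl), an early scaffold of the envelope, read 8.60 and 8.13 at week 0, 8.42 to 9.95 in 7 of the later arrays and 6.74 in week 16 replicate 1. Its difference was 0.64 (-0.01 to 1.28). At weeks 4 to 12 all 6 Ivl arrays lay above both week 0 arrays, at 8.93 to 9.95. Both promoters hold the AP-1 letters. Crct1 differed by -0.09 and Pglyrp3 and Pglyrp4, which encode peptidoglycan-binding antibacterial proteins, by 0.17 and 0.25, and Lor and all 3 of these changed sign in at least 1 fit with an array left out. Kprp, a proline-rich keratinocyte protein gene, differed by 1.39 ± 0.43 (limma, adjusted p = 0.119). It was called at week 8 (2.61), and lost without week 8 replicate 2 (1.89). None of these 6 genes was called over weeks 4 to 16.

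The normal-range pair labelled DKO, week 12 replicate 2 and week 0 replicate 1, gives the same genes without any low-range array, as 1 array against 1. Of the 43 genes, 32 were higher by more than 1 log2 unit in the week 12 array, and 4.42% of all genes were. The subfamily medians were 4.02 for Sprr2, 3.30 for Lce3, 3.01 for Lce1 and 1.45 for the S100-fused genes. Lce3e (6.62), Sprr2b (6.58), Sprr2d (6.20), Sprr2e (5.65), Lce3a (5.50), Sprr2f (5.29) and Sprr1b (5.15) were the highest, and Sprr4 was lower by -1.46. A fit without the 9 low-range arrays leaves these 2 arrays on the DKO side, so its DKO differences are those of the pair. Its spread comes from WT and KO arrays alone. Estimated array weights were lower in the arrays labelled DKO (0.178 to 0.350) than in WT (1.44 to 6.39), and 0.189 to 3.11 in KO. The calls of that fit are therefore not read as results.

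Low-range arrays read dim genes higher and bright genes lower than normal-range arrays did, and most members were dim, so the differences were set beside those of genes of like level. Among genes with a WT mean under 4, the 20 members had a median difference of 3.03 in the normal-range pair and all 20 were positive, against a median of 0.22 and a 95th percentile of 1.08 over 4395 genes. For the 13 members between 4 and 6 the medians were 1.93 and 0.10, and for the 7 between 6 and 9 they were 1.48 and -0.19. Above 9 lay Sprr1a, Crct1 and Sprr4 alone, with 0.35, -0.46 and -1.46, against -0.44 over all such genes. Between the week 0 arrays labelled DKO, low-range replicate 2 minus normal-range replicate 1, genes under 4 had a median of 1.07 and the 20 members 1.67. Between the KO week 12 arrays, low-range replicate 2 minus replicate 1, these medians were 1.09 and 0.86, and replicate 2 held the highest KO value for 17 of the 43 members. Between the week 12 arrays labelled DKO, low-range replicate 1 minus normal-range replicate 2, genes under 4 had a median of 0.65, but the 20 members had -0.52 and 5 were positive. Within a week, then, the dim members read higher on the low-range array in 2 of these 3 pairs and lower in 1.

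**Figure D4:**
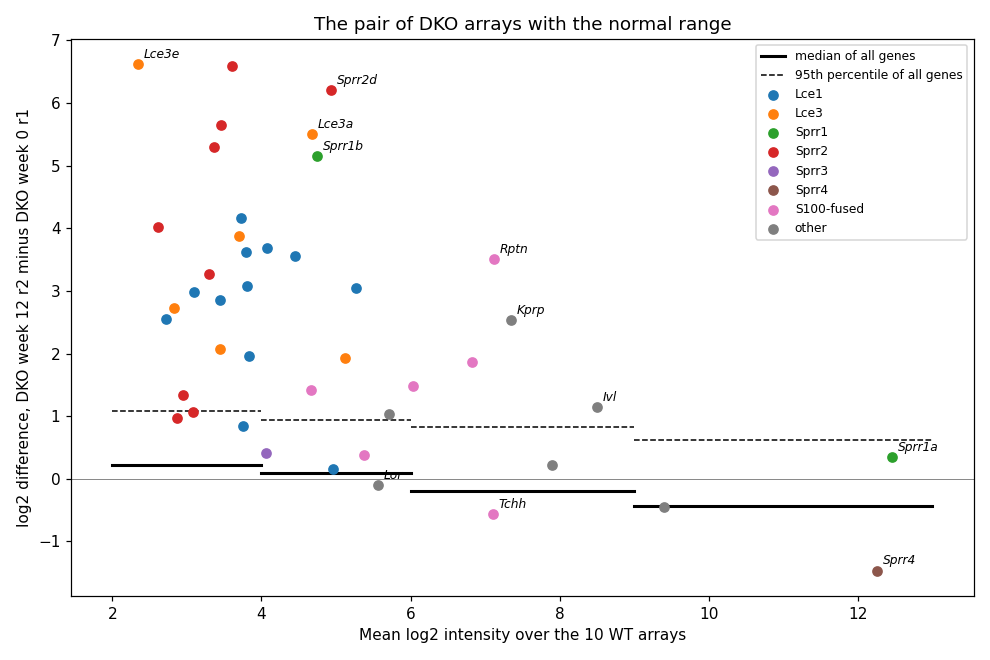
Log2 difference between the normal-range arrays DKO week 12 replicate 2 and DKO week 0 replicate 1 against mean log2 intensity in the 10 WT arrays, 1 point per gene, coloured by subfamily; thick lines are medians and dashed lines 95th percentiles of all genes in each range of level. Lce3e (6.62) and Sprr2d (6.20) lie far above the dashed lines, Sprr1a (0.35) below its line and Sprr4 (-1.46) below the median.

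WT and KO glands gave no called member over weeks 4 to 16 (limma; 0% of all genes were called in either comparison). The medians of the 43 differences were 0.16 in WT and 0.09 in KO. At an unadjusted p under 0.05 there were 3 members in WT (Flg2 1.23, Hrnr 1.20 and Crnn 0.57) and 2 in KO (Flg2 1.49 and Crnn 0.78), all positive and all S100-fused, when 0.82% of all genes in WT and 1.37% in KO had such a p. The 3 WT values turn on week 0 replicate 2, and without it they were 0.01 for Flg2, 0.26 for Hrnr and 0.23 for Crnn. In KO, without week 0 replicate 1, Flg2 gave 0.74 and Crnn 0.62. In WT the lowest Flg2 array was week 0 replicate 2, at 4.62, with replicate 1 at 7.07 and the 8 later arrays between 5.69 and 7.88. In KO, Flg2 read 5.86 and 7.35 at week 0 and 7.38 to 8.99 later, with no overlap. All exposed arrays lay above both week 0 arrays for 3 members in KO (Crnn, Flg2 and Lor; 1.25% of all genes) and for Sprr2h in WT (6.51%). Sprr2d in WT and KO had differences of -0.04 and 0.28, and Sprr4 had 0.14 and 0.09. With only the groups of one genotype in the fit, the count of called members was also 0 in each.

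Whether the change from week 0 differed between genotypes was tested directly. No member passed against WT (0.0373% of all genes did) or against KO (0.0426%), at adjusted p under 0.05 in limma. Sprr2d came nearest, with a difference of changes of 4.12 ± 0.79 against WT (adjusted p = 0.0773) and 3.80 ± 0.79 against KO (adjusted p = 0.149). Rptn gave 3.98 ± 0.85 and Lce1a1 2.59 ± 0.55 against WT (adjusted p = 0.147 for both). Sprr4 gave -1.82 ± 0.73 (adjusted p = 0.966). Single arrays labelled DKO changed these counts. Against WT the count was 1 if week 0 replicate 1, week 8 replicate 2 or week 16 replicate 1 was left out, 2 if week 8 replicate 1 was, and 5 if week 16 replicate 2 was. Against KO it was 4 or 1 with week 8 replicate 1 or 2 left out, and 7 with week 16 replicate 2 left out. Sprr2d passed against WT in 3 of these fits, with values of 3.76 to 4.49, and Sprr4 in the fit that left out week 16 replicate 2 (-2.29). Without the low-range arrays the DKO change again has 1 array on each side, and the counts of that fit are not read as results.

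Levels of the genotypes were also compared at matched weeks. Over weeks 4 to 16, 37 members were higher and 2 lower in the arrays labelled DKO than in WT, but 41.5% of all genes were higher and 30% lower. Against KO, 35 were higher and 2 lower, with 33.5% of all genes higher and 25.4% lower. Sprr4 was among the lower genes in both, by -2.20 ± 0.32 against WT (adjusted p = 8.48e-06) and -1.79 ± 0.32 against KO (adjusted p = 0.00016), and Pglyrp4 was the other (-1.52 and -1.29). Without the low-range arrays Pglyrp4 was not called (-0.47 and -0.38). With the label-number range as a block, 6 members were called against WT and 5 against KO, Sprr4 was not among them (-1.54 and -1.22), and Pglyrp4 turned to 0.14 and 0.16. KO and WT did not differ in any called member over weeks 4 to 16 (1.5% of all genes called). At week 0, 2 members were higher in the arrays labelled DKO than in WT (0.697% of all genes higher), Sprr2i by 1.90 and Lce1l by 1.73, and no member was called between the arrays labelled DKO and KO or between KO and WT (0% of all genes in each). Sprr2i and Lce1l lost the call without either WT array (1.86 and 1.95 for Sprr2i, 1.65 and 1.81 for Lce1l) or without the low-range DKO replicate 2 (0.91 and 0.65). The count against WT was 0 if WT replicate 2 or DKO replicate 2 was left out and 12 if DKO replicate 1 was, and DKO against KO then gave 5.

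Genes outside the complex that work with the envelope changed in part. Of 26 measured suprabasal keratins, transglutaminases, proteases and scaffold genes, 5 were higher over weeks 4 to 16 in the arrays labelled DKO and none was lower, 19.2% of the list against 0.57% of all genes. Krt1, the suprabasal type II keratin, read 4.47 and 5.37 at week 0, 4.93 and 6.91 at week 4, 9.72 and 11.02 at week 8, 10.99 and 10.06 at week 12, and 10.93 and 10.22 at week 16 (4.43 ± 0.39, limma, adjusted p = 8.05e-07). Its partner Krt10 (2.87), the protease inhibitor Csta1 (2.85), cornifelin (Cnfn, 1.78) and the desquamation protease Klk7 (1.51) were the others. At week 16, Asprv1, the protease that processes filaggrin, was lower (-1.58 ± 0.43, adjusted p = 0.0413). Of 20 measured regulators, including Jun and Fos family members, Klf4, Grhl3 and Ahr, none was called over weeks 4 to 16, and 4 had an unadjusted p under 0.05, as did 16.2% of all genes. Fos differed by 0.80 ± 0.28 (adjusted p = 0.171). The S100 genes of the same complex gave 2 calls of 13, S100a8 (4.63) and S100a9 (3.83).

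Markers of other cells moved in the same arrays. The mean level of 4 keratins of wounded or hyperproliferative epidermis was 5.68 to 6.05 at week 0 and 5.90 to 9.24 later in the arrays labelled DKO, with Krt6b called (3.64 ± 0.67, limma, adjusted p = 0.0112) and the other 3 not. Krt6a was called higher at week 8 (2.27), week 12 (2.63) and week 16 (2.06). The 9 neutrophil genes averaged 4.47 to 4.83 at week 0 and 4.91 to 6.83 later, with S100a8, S100a9 and Cxcr2 called. S100a8 and S100a9 are also the S100 genes of the complex named above, so these calls are not separate evidence. Which cells gave their signal was not tested. The 11 sebocyte genes averaged 7.70 to 7.98 at week 0 and 6.03 to 7.78 later, against 8.31 to 8.73 in WT. None of the sebocyte genes was called over weeks 4 to 16, but the wax synthase Awat2 (-3.20) and the lipid droplet gene Plin2 (-2.19) were lower at week 16. The macrophage genes C1qc (2.01 at week 12 and 1.75 at week 16) and C1qa (1.06 at week 16) and the simple epithelial keratin Krt19 (1.52 at week 16) were higher. The other listed simple epithelial keratins did not share a direction at week 16. Krt18 (-1.31) and Krt7 (-0.40) had negative differences and Krt8 (1.05) a positive one, none of them called. None of 6 inner root sheath genes and none of 7 basal keratinocyte genes was called over weeks 4 to 16. No listed gene can be said to be absent, since detection calls were not used. The part of these cells in the changes of the envelope genes was not tested.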

How the data were processed

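Expression was measured in preputial glands of 30 mice, 2 in each of 15 groups formed by genotype and week, taken from the labels. Per the submitters' processing notes the authors used RMA (version not stated) and deposited log2 intensities per probe set. RMA gives all arrays of a run one distribution, yet the deposited values differ in range, and the cause was not tested. Of 21212 probe sets, 18786 carried 1 symbol, 6 several and 2420 none listed, which gave 18784 genes (for a gene with several probe sets, the brightest on average; each member had 1). No low-value filter was applied. A mean per group was fitted in limma 3.58.1 (R 4.3.3; residual degrees of freedom 15, prior 6.91), with two-sided moderated tests in 16 comparisons and Benjamini-Hochberg adjustment over all genes within each. Calls needed an adjusted p under 0.05, and errors after ± are standard errors. The fit was tested on simulated data in which the spread of a gene was the same on every array. That test could not show how the fit behaves where the spread differs between arrays. Nothing in the labels says how the 2 mice of a group relate; p-values measure the spread between these arrays, whose number limits the precision.

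The members and lists were chosen with earlier results of these data known. Any member could be named; other genes came from the listed partners, regulators, S100 genes and markers, and the few described were picked after their values were seen. Further lists covered mucosal and simple epithelium, macrophages, fibroblasts, muscle and fat. Promoters came from RefSeq. Replicate numbers of the titles did not pair arrays: over 105 pairs the correlation of deviations from group means was -0.55 to 0.67 (median -0.02), and 16 exceeded 0.1. Alternatives were other scalings, a filter on low values, a trended robust variance, array weights, fewer groups, blocks and left-out arrays.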

Additional observations from a re-analysis of the deposited data

Results flagged for a closer look

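Lce1d, a late cornified envelope gene, had exposed arrays on opposite sides of the week 0 mean in 2 genotypes. All 8 exposed arrays labelled DKO lay above their week 0 mean, with a change of 1.92 over weeks 4 to 16, although the week 4 arrays, at 4.52 and 4.51, barely did. All 8 exposed KO arrays lay below theirs, with a change of -0.44. That KO mean is raised by week 0 replicate 1, at 5.02, with replicate 2 at 4.12. The exposed KO arrays read 3.77 to 4.49 and overlapped replicate 2, so the KO direction turns on 1 array. The difference between the DKO and KO changes was tested and did not pass the threshold (2.36 ± 0.69; limma, adjusted p = 0.418).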

How the results depend on the processing

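Counts are members called of 43. The fit without low-range arrays keeps 1 DKO array at week 0 and 1 at week 12, and takes its spread from WT and KO. Label numbers 22 to 33 keep 1 DKO week 0 array. No share of all genes stands beside the counts of these fits. For weeks 4 to 16 against week 0 in the arrays labelled DKO (11 as reported), array weights gave 0, only the groups compared 2, label numbers 22 to 33 alone 1, and the fit without low-range arrays 32. Leaving out single arrays gave 7 to 20. For week 16 (13), array weights gave 1, only the groups compared 0, the label-number block 7, numbers 22 to 33 alone 1, and single arrays 2 to 24. For week 4 (0), quantile normalization gave 1, the label-number block 2, numbers 22 to 33 alone 1, and single arrays 0 to 2. For week 8 (13), array weights gave 0, only the groups compared 3, numbers 22 to 33 alone 1, and single arrays 4 to 23. For week 12 (15), array weights gave 2, only the groups compared 1, numbers 22 to 33 alone 1, the fit without low-range arrays 32, and single arrays 8 to 13. For weeks 12 and 16 against weeks 4 and 8 (2), quantile normalization gave 9 (5 higher, 4 lower), the filter on low values 4, array weights 1, only the groups compared 0, the label-number block 7, numbers 22 to 33 alone 0, and single arrays 1 to 15. For DKO against WT at week 0 (2), quantile normalization, array weights and only the groups compared gave 0, median centring, the label-number block and the replicate block 1, the fit without low-range arrays 6, and single arrays 0 to 12. DKO against KO at week 0 (0) gave 0 to 5 with single arrays left out, and KO against WT at week 0 (0) gave 5 without low-range arrays. For KO against WT over weeks 4 to 16 (0), array weights gave 2, only the groups compared 4 and the fit without low-range arrays 5. DKO against WT over weeks 4 to 16 (39) gave 6 with the label-number block. DKO against KO (37) gave 5 with it and 2 within numbers 22 to 33. The DKO change minus the WT change (0) gave 1 with quantile normalization, trended robust variance, only the groups compared or the label-number block, 26 without low-range arrays, and 0 to 5 with single arrays left out. Minus the KO change (0) it gave 1 with the label-number block, 28 without low-range arrays and 0 to 7 with single arrays left out. Pglyrp4 reversed with the label-number block, from -1.52 to 0.14 against WT and from -1.29 to 0.16 against KO. The causes were not tested.

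With the titles' replicate number as a block, 10 members were called in DKO weeks 4 to 16 against week 0, and Lce1a2 was lost. Of 63 calls of named members, the filter on low values and the mean of all probe sets kept 63, median centring and trended robust variance 59, quantile normalization and the replicate block 56, the label-number block 45 (2 reversed), only the groups compared 13 and array weights 11. Numbers 22 to 33 alone kept 4 of 57, and the fit without low-range arrays 32 of 35. Over single left-out arrays 337 of 410 fits kept the call and 73 did not. Quantile normalization moved the median of all genes between DKO and WT over weeks 4 to 16 from 0.19 to 0.03. With 2 arrays per group, the smallest difference called over weeks 4 to 16 was 1.69.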

Other observations

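The week 16 arrays labelled DKO were unlike each other across the complex. Replicate 1 read Lce3e at 9.36, Sprr2e at 9.56, Lce3a at 10.42 and Lor at 7.92, and replicate 2 read them at 3.75, 5.54, 6.51 and 4.88. Sprr4 was the reverse, at 5.50 and 9.30, and so was Ivl, a scaffold gene, at 6.74 and 8.42. Replicate 1 minus replicate 2 had a median of 1.38 over the 20 members with a WT mean under 4, 19 of them positive, and of 0.20 over all such genes. Both are low-range arrays.

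Among further lists in the arrays labelled DKO over weeks 4 to 16, none of 2 mucosal squamous keratins (median difference 0.71), 4 simple epithelial keratins (0.21), 5 macrophage genes (0.61), 6 fibroblast genes (0.19), 5 skeletal muscle genes (0.18) or 4 fat genes (0.22) was called by limma. At an unadjusted p under 0.05 they gave 1, 2, 2, 0, 1 and 0 genes, when 16.2% of all genes had such a p. At single weeks C1qa, C1qc and Krt19 were called, with the values given above.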
